A study of Homo sapiens with 11 samples.

Results

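The genes described here form the route by which a cell is told to die from outside: 9 genes of the 58699 in the table, taken by symbol, with no measured value in the rule. They are the ligand TNFSF10 (TRAIL), its receptors TNFRSF10A, TNFRSF10B, TNFRSF10C and TNFRSF10D, the receptor FAS, the adaptor FADD, the initiator protease CASP8 and its inhibitor CFLAR. All 9 were found, each under 1 identifier. RNA was measured in HCT116, a line of human colorectal cancer cells, in 4 groups of 2 total RNA libraries each. The siRNA of 1 arm targeted luciferase and served as the control (siLuc), and that of the other arm targeted Staufen1, which binds double-stranded RNA (siStau1). Each arm received either DMSO, the solvent, or 500 nM decitabine (DAC), a cytidine analogue that depletes DNA methylation, for 5 days per the labels. By its title, the series deals with a non-canonical response of immune kind to loss of DNA methylation and with stabilised double-stranded RNA from retroviral elements.

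When TRAIL or FAS ligand binds, the receptor gathers FADD through paired death domains, and FADD gathers caspase 8 through paired death effector domains. Caspase 8 molecules brought together cut and activate each other, and then cut executioner caspases and BID, which passes the signal to mitochondria. TNFRSF10A and TNFRSF10B carry a working death domain, TNFRSF10C has no intracellular part and TNFRSF10D a truncated one, so the last 2 bind TRAIL without passing the signal on. CFLAR (c-FLIP) resembles caspase 8 but lacks its catalytic residue, and it competes for FADD. In epithelial tumour cells the pathway is best known for differences in sensitivity to TRAIL, and FAS and TNFRSF10B are known targets of p53, while TNFSF10 is known to be induced by interferon.

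The values are FPKM, fragment counts scaled to transcript length and library size, a level per length that can be compared between genes. The authors' deposited table gives 1 FPKM per gene and group, with none per library, so no spread between libraries can be shown and the depth is unknown. A gene is said to be called in a comparison when the Cuffdiff q-value in the authors' deposited table is under 0.05. Log2 ratios are of FPKM with 0.1 added. The labels do not say whether the 2 libraries of a group came from separate cultures, so the authors' p-values may measure technical spread.

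The RNA of the targeted gene differed little between the siRNA groups. STAU1 had 35.5 (DMSO) and 33.7 FPKM (DAC) in siLuc cells, against 29.98 (DMSO) and 27.1 FPKM (DAC) in siStau1 cells, and neither knockdown comparison called it (q = 0.767 with DMSO and q = 0.685 with DAC in the authors' deposited table). Directions across the siRNA groups are therefore those of libraries labelled siStau1 against libraries labelled siLuc. The word knockdown is used here for that comparison of labels only. Of 9 colorectal epithelial markers, 7 had at least 1 FPKM in every group, while VIL1 and CDH17 were under 1 FPKM in all 4. Their sum was 2602 and 8204 FPKM without and with DAC in siLuc, and 2152 and 5956 in siStau1, with KRT8 the highest in siLuc DMSO at 1103 FPKM. With DAC, Cuffdiff called KRT19 and KRT20 higher in both arms, KRT18 higher in siStau1 and EPCAM lower in siLuc, and under DAC it called KRT20 higher in siStau1 than in siLuc. The sum of 6 immune markers was 1.76 FPKM with DMSO and 19.4 with DAC in the siLuc arm, and 0.80 and 9.38 in the siStau1 arm, and at most 2 of the 6 reached 1 FPKM. CD68 made up most of it, and PTPRC was listed at 0 with DMSO in both arms and called with DAC in siStau1, at 0.82 FPKM. The sum of 6 stromal and endothelial markers was 1.76, 10.3, 1.13 and 7.66 FPKM in that order. LUM was listed at 0 with DMSO in both arms, PECAM1 was called higher with DAC in siLuc, and COL1A1 and VWF in siStau1. The sums of all 3 lists were higher in both DAC groups, and their part in the values below was not tested.

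The authors tested 8 of the 9 genes in all 6 pairs of groups and left TNFSF10 untested. Cuffdiff called 0 of the 8 in every pair. The pair in which most genes were called, siStau1 DMSO against siLuc DAC, differs in both siRNA and drug, and 16.7% of 17632 genes were called there. In that pair 3 of the 8 had an unadjusted p under 0.05 in the authors' deposited table, against 33.1% of all genes: TNFRSF10B (p = 0.0189), TNFRSF10A (p = 0.0374) and FADD (p = 0.0413), all lower in siStau1 DMSO. The orders of groups given below are thus orders of values, and no neighbours in them differed at the authors' threshold.

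**Figure D1:**
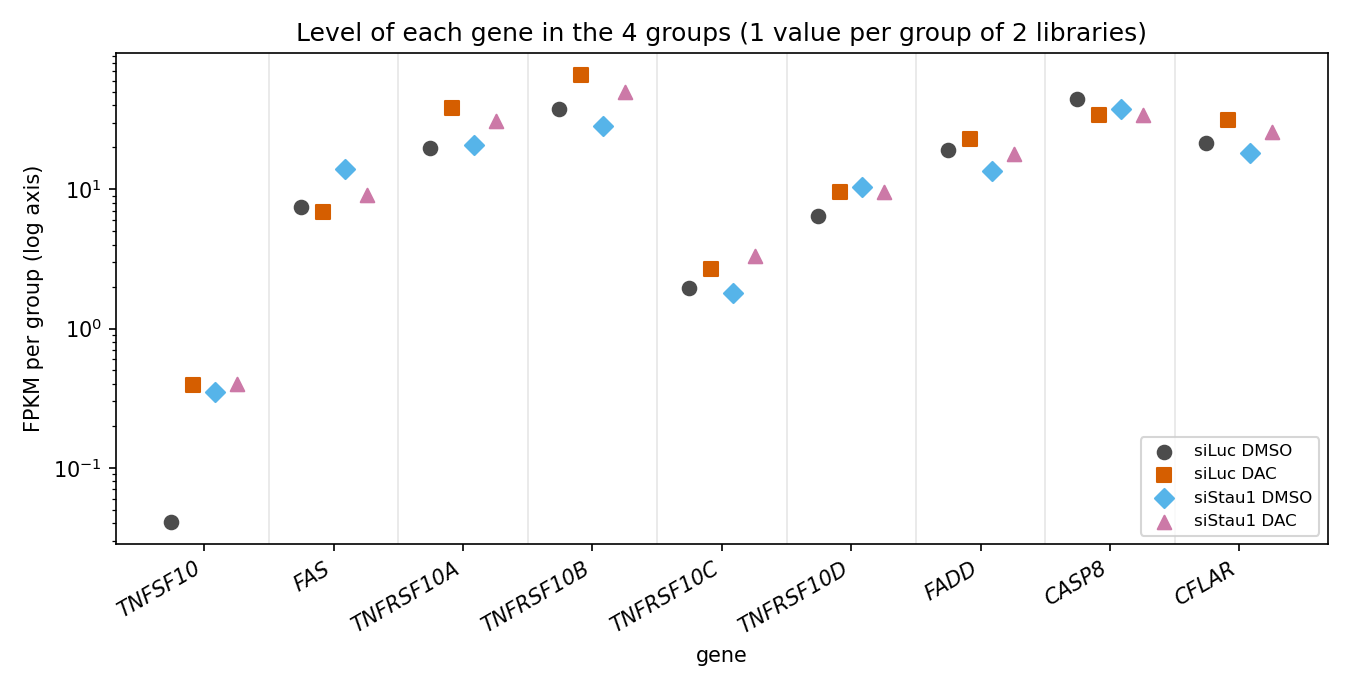
FPKM of each of the 9 genes (log axis), with 1 point per group of 2 libraries and no error bar because no library values were given. TNFSF10 lies under 0.4 FPKM in all 4 groups, while TNFRSF10B and CASP8 lie between 28.4 and 65.7 FPKM.

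TNFSF10 (ENSG00000121858.10, chromosome 3, 172505508 to 172523507, GRCh38), the ligand TRAIL, was close to undetected. It had 0.0411 (DMSO) and 0.395 FPKM (DAC) in siLuc cells, against 0.350 (DMSO) and 0.398 FPKM (DAC) in siStau1 cells. The control group stood lowest and the other 3 groups lay close together. Its log2 ratio for DAC over DMSO was 1.81 in siLuc and 0.15 in siStau1, and for siStau1 over siLuc it was 1.67 with DMSO and 0.01 with DAC. With values this low the size follows the pseudocount and no test was made. FASLG, the ligand of FAS, was listed at 0 FPKM in all 4 groups.

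TNFRSF10B (ENSG00000120889.12, chromosome 8, 23020133 to 23069179), which carries a death domain and is often called DR5, was the most abundant of the 5 receptors in every group. It had 37.6 FPKM with DMSO and 65.7 with DAC in the siLuc arm, and 28.4 and 49.8 in the siStau1 arm. Both DAC groups stood above both DMSO groups, and within each drug the siLuc group was above the siStau1 group. The log2 ratio of DAC over DMSO was 0.80 in siLuc and 0.81 in siStau1. In the authors' deposited table the q-values were 0.177 and 0.391, so neither was called.

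TNFRSF10A (ENSG00000104689.9, chromosome 8, 23190452 to 23225126), the other TRAIL receptor with a death domain, had 19.7 (DMSO) and 38.2 FPKM (DAC) in siLuc cells, against 20.6 (DMSO) and 30.8 FPKM (DAC) in siStau1 cells. Again both DAC values exceeded both DMSO values, and the DMSO values of the siRNA arms were nearly equal. The log2 ratio of DAC over DMSO was 0.95 in siLuc and 0.58 in siStau1, and the authors' deposited table gave q = 0.163 and q = 0.558. A difference of this size was seldom called for any gene. Of 305 genes with at least 10 FPKM in both siLuc groups and a DAC log2 ratio within 0.1 of that of TNFRSF10A, 27 were called (8.85%). Of 411 such genes around the ratio of TNFRSF10B, 3 were called (0.730%). In siStau1 the numbers were 0 of 485 and 0 of 324. A lack of calls at this size says little about whether the level changed. On the opposite strand, AC100861.1 overlaps TNFRSF10A over 656 bases and had 3.72 to 5.94 FPKM, and RHOBTB2 overlaps TNFRSF10B over 67 bases and had 1.19 to 2.51 FPKM.

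The decoy receptors were lower. TNFRSF10D (ENSG00000173530.5, chromosome 8, 23135588 to 23164030) had 6.44 FPKM with DMSO and 9.48 with DAC in the siLuc arm, and 10.3 and 9.57 in the siStau1 arm. Here the control group was lowest and the other 3 groups lay within about 1 FPKM of each other, as for TNFSF10 at its far lower level. TNFRSF10C (ENSG00000173535.14, chromosome 8, 23102590 to 23117437) had 1.96, 2.67, 1.79 and 3.31 FPKM in the same order of groups, with both DAC values above both DMSO values. Its level is uncertain, because a protein-coding gene model on the same strand, AC107959.5, overlaps it over 12947 bases and was given 1.05 FPKM (DMSO) and 0.264 (DAC) in siLuc and almost none in siStau1. In these bulk libraries fewer cells that express a gene and less RNA per cell cannot be told apart.

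Summed over both TRAIL receptors of each kind, those with a death domain had 57.3 (DMSO) and 103.8 FPKM (DAC) in siLuc cells, against 49.0 (DMSO) and 80.6 FPKM (DAC) in siStau1 cells. The decoys together had 8.40, 12.2, 12.1 and 12.9 FPKM. The ratio of the first sum to the second was 6.81 with DMSO and 8.54 with DAC in siLuc, and 4.05 and 6.26 in siStau1. It was lowest in siStau1 DMSO, where TNFRSF10B was at its lowest value and TNFRSF10D at its highest. These ratios have no error and were not tested.

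FAS (ENSG00000026103.21, chromosome 10, 88990582 to 89015785), the receptor of FAS ligand, had another order. It had 7.42 FPKM with DMSO and 6.82 with DAC in the siLuc arm, and 14.1 and 9.09 in the siStau1 arm. The siStau1 groups stood above the siLuc groups, and siStau1 DMSO was 2.06 times the lowest group. Against siLuc, siStau1 had a log2 ratio of 0.91 under DMSO and 0.41 under DAC, and the authors' deposited table gave q = 0.495 and q = 0.811. Relative to genes of like transcript GC content, described below, these ratios were 0.56 and 0.02. TNFRSF10B exceeded FAS by 5.06 times with DMSO and 9.63 times with DAC in siLuc, and 2.02 and 5.48 times in siStau1. ACTA2, which overlaps FAS over 758 bases on the opposite strand, had 1.95, 5.49, 0.865 and 4.64 FPKM in that order, so its values did not run parallel to those of FAS. The libraries were stranded per the labels, but whether counting used the strand is not given in the sources used here.

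FADD (ENSG00000168040.4, chromosome 11, 70203163 to 70207390), the adaptor, had 19.1 (DMSO) and 22.8 FPKM (DAC) in siLuc cells, against 13.5 (DMSO) and 18.0 FPKM (DAC) in siStau1 cells. The values of each siStau1 group were below those of siLuc with the same drug, by a log2 ratio of −0.49 with DMSO and −0.33 with DAC. Relative to genes of like GC content, described below, these ratios were −0.21 and 0.14, so the sign with DAC turned. The q-values in the authors' deposited table were 0.543 and 0.689.

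CASP8 (ENSG00000064012.21, chromosome 2, 201233443 to 201287711), the protease that starts the cascade, varied least. It had 44.4 FPKM with DMSO and 33.96 with DAC in the siLuc arm, and 37.8 and 34.02 in the siStau1 arm, so the highest group was 1.31 times the lowest. CFLAR (ENSG00000003402.19, chromosome 2, 201116104 to 201176687), the inhibitor, had 21.6, 31.4, 18.1 and 25.8 FPKM in the same order. CASP8 was the only tested gene besides FAS whose value with DAC was below that with DMSO in both siRNA arms, and CFLAR was above in both. Relative to genes of like GC content, described below, CASP8 was instead at 0.11 in siLuc and 0.26 in siStau1. In the same order FAS was at 0.51 and −0.11, and CFLAR at 0.98 and 0.82. The ratio of CASP8 to CFLAR was 2.06 with DMSO and 1.08 with DAC in siLuc, and 2.08 and 1.32 in siStau1. This ratio was nearly the same in both DMSO groups and lower in both DAC groups, and it has no test. The antisense gene CFLAR-AS1, which lies inside CFLAR over 17546 bases, was called in both DAC comparisons. Its level was 0.230 FPKM without DAC and 4.18 with it in siLuc, and a listed 0 without and 2.82 with it in siStau1. The authors' deposited table gave q = 0.00162 for each. If counting ignored the strand, part of its reads could be counted for CFLAR.

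The comparison of siLuc DAC with siLuc DMSO addresses the response to DAC in control cells. There 0 of 8 tested genes of the pathway core were called by Cuffdiff, against 13.5% of all 17504 genes tested. At an unadjusted p under 0.05 there were 2, TNFRSF10A (p = 0.0214) and TNFRSF10B (p = 0.0244) in the authors' deposited table, against 28.9% of all genes tested. By value, 7 of the 9 genes (6 of the 8 tested) were higher with DAC, as were 57.1% of all genes tested, and FAS and CASP8 were lower. The median log2 ratio of the 9 was 0.54, that of the 8 tested was 0.49, and that of all genes tested was 0.23, with quartiles of −0.65 and 1.13. The count of calls and the shares at an unadjusted p do not set these genes apart from the rest.

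In siStau1 cells the same comparison gave 0 calls by Cuffdiff among 8 tested genes, against 7.46% of 16979. At an unadjusted p under 0.05 there were also 0, against 19% of all genes tested. By value 6 of the 9 (5 of the 8 tested) were higher with DAC, against 54.1% of all genes tested, and FAS, TNFRSF10D and CASP8 were lower. The median of the 9 was 0.41, that of the 8 tested was 0.46, and that of all genes tested was 0.11. In these ratios TNFRSF10D, at 0.55 in siLuc and at −0.11 in siStau1, was the one tested gene whose sign differed between the arms. Relative to genes of like GC content, described below, the sign also differed for FAS and TNFRSF10C. Whether the arms differ in this was not tested, since that needs values per library.

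**Figure D2:**
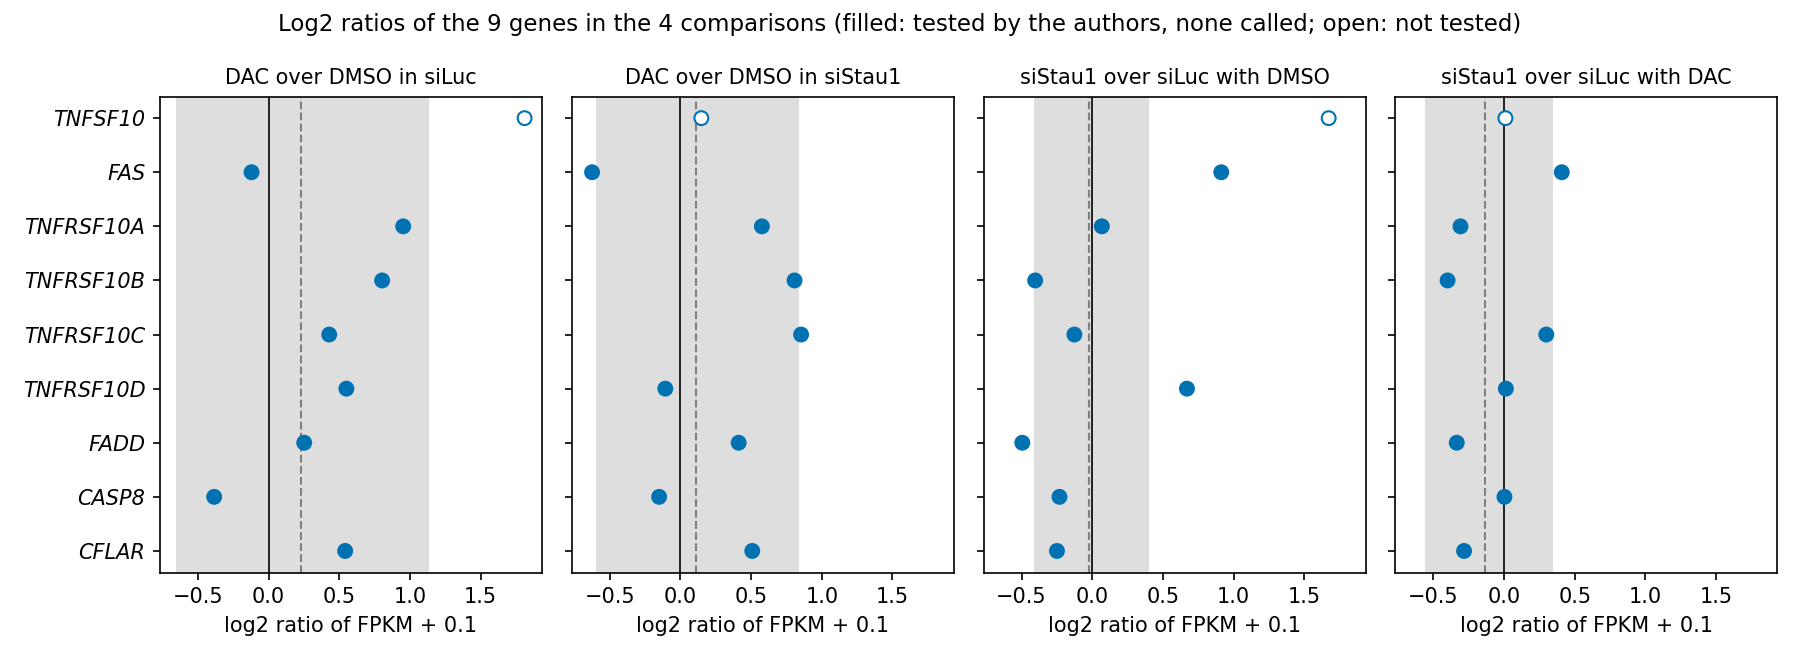
Log2 ratio of FPKM + 0.1 (x axis) for the 9 genes (rows) in 4 comparisons (panels), with the grey band from the lower to the upper quartile of all genes tested, the dashed line at their median and the solid line at 0. Filled points were tested by the authors and none was called, and the open point, TNFSF10, was not tested. In siLuc the 8 tested genes lie within the band for DAC, with TNFRSF10A at 0.95 and TNFRSF10B at 0.80 on its right side.

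Without DAC, siStau1 against siLuc gave 0 calls by Cuffdiff among the 8 tested genes, against 0.799% of 15893, and 0 at an unadjusted p under 0.05, against 4.3%. By value 4 of the 9 were higher in siStau1, namely TNFSF10, FAS, TNFRSF10D and TNFRSF10A, and 5 were lower. The median log2 ratio of the 9 was −0.13, that of the 8 tested was −0.18, and that of all genes tested was −0.02. The smallest q-value of the 8 in the authors' deposited table was 0.353, for TNFRSF10D, with a log2 ratio of 0.67.

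Under DAC, siStau1 against siLuc gave 0 calls by Cuffdiff, against 0.904% of 17263, and 0 at an unadjusted p under 0.05, against 6.95%. The ratios were small: FAS at 0.41 was the highest and TNFRSF10B at −0.40 the lowest, and TNFRSF10D and CASP8 were at 0.01 and 0.00. The median of the 9 was 0.00, but that of the 8 tested genes was −0.14, as over all genes tested (−0.14). Genes at 1 FPKM or more in each group had a median of −0.11, and relative to it the median of the 9 was 0.11. The signs of both knockdown medians turned when ratios were centred by transcript GC content, to 0.16 with DMSO and −0.22 with DAC. After that centring, TNFRSF10C at 0.75 was the highest under DAC and CFLAR at −0.44 the lowest, with FAS at 0.02. Knockdown and DAC together, siStau1 DAC against siLuc DMSO, also gave 0 calls by Cuffdiff, against 4.98% of 16909, and 0 at an unadjusted p under 0.05, against 13.6%. The highest tested gene there was TNFRSF10C, with a log2 ratio of 0.73, and the lowest was CASP8 at −0.38. These comparisons share groups with those above and are not separate evidence.

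Ratios across the genome moved with the GC content of transcripts. For DAC in siLuc the median log2 ratio of protein-coding genes at 1 FPKM or more in each group compared ran from −0.95 in the lowest of 20 GC bins to 1.20 in the highest. The 9 genes span 39.1% GC (FAS) to 58.6% (FADD). Beside genes of like GC content, CFLAR had the highest DAC ratio of the tested genes in siLuc, 0.98 above its bin, then TNFRSF10A at 0.79 and TNFRSF10B at 0.64. FAS stood 0.51 above its bin although its own ratio was −0.12, and CASP8 stood 0.11 above with a ratio of −0.38. FADD and TNFRSF10C, the GC-richest of the 9, were at −0.54 and −0.33 relative to their bins although their own ratios were 0.25 and 0.43. In siStau1 the values relative to the bins were 0.82 for CFLAR, 0.40 for TNFRSF10A, 0.64 for TNFRSF10B, 0.26 for CASP8 and −0.22 for FADD. FAS was at −0.11 there and TNFRSF10C at 0.22, each of the other sign than in siLuc. TNFRSF10D was 0.53 above its bin in siLuc and at −0.04 in siStau1. TNFRSF10A, TNFRSF10B and CFLAR were thus on the same side under both ways of counting and in both arms, while for FAS, CASP8, FADD and TNFRSF10C the side for DAC depended on it in at least 1 arm. The part of GC content in these ratios was not tested.

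**Figure D3:**
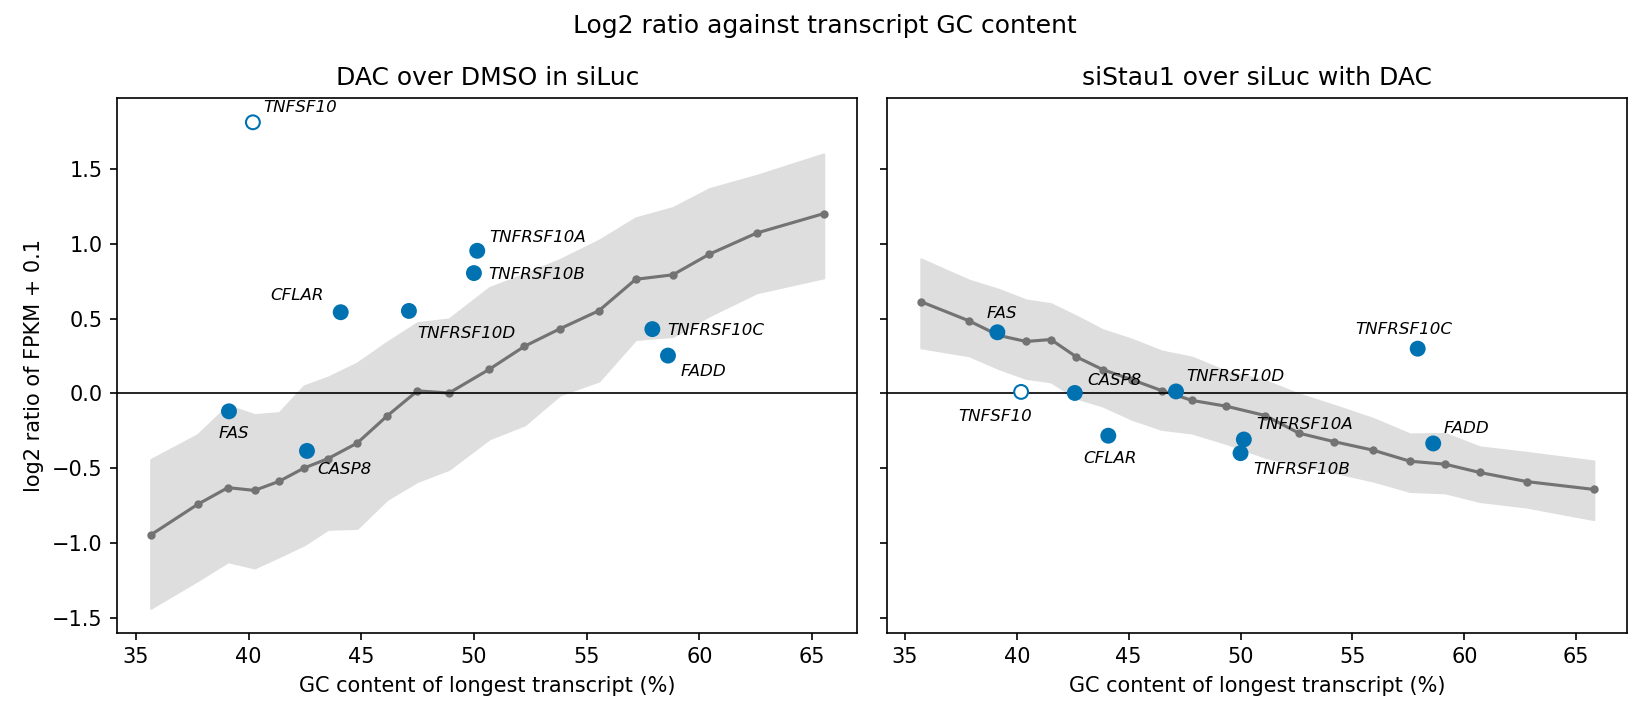
Log2 ratio of FPKM + 0.1 (y axis) against transcript GC content in percent, from the longest transcript (x axis), for DAC over DMSO in siLuc and for siStau1 over siLuc with DAC. The grey line joins the medians of 20 bins of protein-coding genes, the band runs from the lower to the upper quartile, and the 9 genes are named points, open where not tested. For DAC in siLuc the line climbs from −0.95 to 1.20, with CFLAR, TNFRSF10A and TNFRSF10B above it and FADD and TNFRSF10C below it.

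The genes whose 4 values lay closest in pattern to a member were sought among protein-coding genes with at least 1 FPKM in every group, by the distance between centred log2 values. For TNFRSF10B these were NOC2L (distance 0.021), DUS1L (0.029) and MPRIP (0.042), among 10685 genes. NOC2L had 106.7 and 189.0 FPKM without and with DAC in siLuc, and 82.1 and 141.9 in siStau1. For CASP8 they were GINS3 (0.017), APH1B (0.030) and TXNRD1 (0.039), and for FAS they were C5orf24 (0.087), TMED5 (0.089) and CPD (0.101). For TNFSF10, SLC36A1 (0.374) and DLGAP4 (0.405) were among the closest, both with higher values in the 3 other groups than in siLuc DMSO. Within the 9 genes, the closest to TNFRSF10B was CFLAR at 0.312, and the closest to FAS was TNFRSF10D at 0.679. With 4 values per gene and this many candidates, close matches are easily found, so the names describe the shape of each pattern only.

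Promoter sequence was examined because DAC acts on CpG methylation, which was not measured here. The RefSeq table (GRCh38.p14) held windows of 250 bases before to 50 after an annotated start for 5 of the 9 genes, 12 windows in all. It held none for TNFRSF10A to TNFRSF10D. Over all 35116 windows the median number of CG dinucleotides was 14, with quartiles of 4 and 28. The FADD window held 36, those of FAS 18, 14 and 22, and those of CFLAR between 0 and 22. The windows of CASP8 held 6, 5 and 6, and that of TNFSF10 held 3. The part of the window upstream of the GENCODE gene start is shown for 3 of these 5 genes, each 5′ to 3′ on the gene's strand. They are the one with the most CG dinucleotides, the protease and the ligand. These parts hold 8 CG in 117 bases for FADD, 6 in 230 for CASP8 and 1 in 173 for TNFSF10. For FADD and TNFSF10 the rest of the CG counted above lies outside the part shown. Capitals mark each CG and, in TNFSF10, a match to the reverse complement of GAAANNGAA, the core of the sequence that interferon-activated factors bind.
FADD, chr11:70203046-70203162, plus strand: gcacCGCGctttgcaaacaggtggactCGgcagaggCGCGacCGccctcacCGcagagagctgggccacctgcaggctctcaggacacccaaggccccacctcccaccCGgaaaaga
CASP8, chr2:201233213-201233442, plus strand: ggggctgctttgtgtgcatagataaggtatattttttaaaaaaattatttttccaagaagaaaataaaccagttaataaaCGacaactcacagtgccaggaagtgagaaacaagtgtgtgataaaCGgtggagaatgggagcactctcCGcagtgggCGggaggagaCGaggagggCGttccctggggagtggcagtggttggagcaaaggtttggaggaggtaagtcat
TNFSF10, chr3:172523508-172523680, minus strand: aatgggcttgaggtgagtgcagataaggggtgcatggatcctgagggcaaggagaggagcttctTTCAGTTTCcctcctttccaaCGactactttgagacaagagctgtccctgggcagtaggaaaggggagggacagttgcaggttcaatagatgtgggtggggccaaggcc

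Counted on both strands over the whole windows, GAAANNGAA had 2 matches in the TNFSF10 window, 1 in a window of CASP8 and 1 in a window of CFLAR, and none in those of FADD and FAS. Of all windows 8.11% hold at least 1. TTCNNNGAA, a form bound by STAT factors, had 1 match, in a window of CASP8, and 7.66% of all windows hold it. A match is a description of letters and no measure of binding. For DAC in siLuc the log2 ratio was 0.25 for FADD, which had the most CG dinucleotides of the genes with windows. It was −0.38 for CASP8, −0.12 for FAS, 0.54 for CFLAR and 1.81 for the untested TNFSF10, which was near 0 FPKM. Relative to genes of like GC content these ratios were −0.54, 0.11, 0.51, 0.98 and 2.46, so 3 signs turned. A relation between CG number and ratio was not tested.

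Around these 9 genes, 52 other genes of the pathway were read from the same table in 4 lists. The lists were proposed with earlier results of these data known, so a higher share of calls in them is not evidence about the pathway. With DAC in siLuc, 8 of 45 tested genes were called higher and 1 lower, 20% of those tested against 13.5% of all genes, of which 8.71% were called higher and 4.78% lower. With DAC in siStau1, 7 of 45 were called higher and 0 lower, 15.6% against 7.46% of all genes (4.56% higher and 2.89% lower). With knockdown, Cuffdiff called 0 of 43 in DMSO, where 0.799% of all genes were called. There 0 had an unadjusted p under 0.05, against 4.3% of all genes. In DAC 0 were called higher (0.434% of all genes) and 1 of 45 lower (0.469%). By list, the calls with DAC in siLuc were 2 of 8 tested other receptors, ligands and decoys, 4 of 18 adaptors and members of the signalling complex, 2 of 15 mitochondrial and executioner genes, and 1 of 4 genes of the necroptosis branch. The median log2 ratios of these lists were 1.51, 0.71, −0.07 and 0.66, beside 0.23 over all genes tested. In siStau1 the lists had 1, 3, 1 and 2 calls, all higher, and medians of 1.21, 0.90, −0.05 and 0.86, beside 0.11. List medians relative to genes of like GC content were not computed. Relative to such genes, the 8 tested genes of the first list were all lower than by their own ratios. They were at −0.29, −0.22, −0.02, 0.17, 0.59, 1.14, 1.16 and 4.29 in siLuc. In siStau1 they were at −0.67, −0.22, 0.20, 0.45, 0.56, 0.64, 0.91 and 3.58. For knockdown in DAC, 1 of 8, 4 of 18, 3 of 15 and 0 of 4 tested genes of these lists had an unadjusted p under 0.05, against 6.95% of all genes.

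Among ligands and other receptors, TNF, the ligand of TNFRSF1A, was listed at 0 with DMSO and at 2.54 FPKM with DAC in siLuc, and at 0.0136 and 1.65 FPKM in siStau1. It was called with DAC in siLuc, with a Cuffdiff q-value of 0.00162, the smallest that any gene had. In siStau1 it was not called, and the q-value in the authors' deposited table was 0.315. The DMSO values were at or near 0 in both arms, so the calls do not show that the arms differ, which was not tested. TNFRSF12A, the receptor of TWEAK, which has no death domain, rose with DAC from 40.7 to 140.7 FPKM (siLuc) and from 29.3 to 78.3 FPKM (siStau1). Its log2 ratios of 1.79 and 1.42 came down to 0.59 and 0.56 relative to genes of like GC content, and the authors' deposited table gave q = 0.00162 and q = 0.0429.

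Of the adaptors, TRADD, which links TNFRSF1A to RIPK1, rose with DAC from 3.34 to 16.1 FPKM in siLuc, a log2 ratio of 2.24, or 1.04 relative to its GC bin (Cuffdiff q = 0.00162). In siStau1 it had 2.15 FPKM without and 7.64 with DAC, and was not called (q = 0.595). PEA15, a death effector domain protein that binds FADD and caspase 8, rose from 23.6 to 68.7 FPKM (siLuc) and from 18.5 to 50.5 FPKM (siStau1), with log2 ratios of 1.54 and 1.45, or 1.37 and 1.23 relative to its bins (Cuffdiff q = 0.00293 and 0.00825). TNFAIP3 (A20), a ubiquitin editor that restrains NF-kB signalling, rose from 2.07 to 7.04 FPKM (siLuc) and from 1.35 to 5.03 FPKM (siStau1), with log2 ratios of 1.72 and 1.82 (Cuffdiff q = 0.0413 and 0.0464). DEDD2 rose in siLuc, with a log2 ratio of 1.22 that was 0.15 relative to its bin (Cuffdiff q = 0.0354). BIRC3, an inhibitor of apoptosis protein in the TNF receptor complex, rose with DAC in siStau1 from 2.83 to 7.19 FPKM (Cuffdiff q = 0.0201) and had 3.67 and 3.44 FPKM in siLuc. Relative to its bins it was higher with DAC in both arms, by 2.03 in siStau1 and 0.86 in siLuc, where it was not called. FAF1, the most abundant of the list in siLuc DMSO, had 99.9 and 95.7 FPKM without and with DAC in siLuc, and 80.9 and 94.6 in siStau1.

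Downstream, BAK1, which forms pores in the outer mitochondrial membrane, rose with DAC from 9.91 to 51.3 FPKM (siLuc) and from 6.05 to 25.3 FPKM (siStau1), with log2 ratios of 2.36 and 2.05, or 1.57 and 1.42 relative to GC bins (Cuffdiff q = 0.00162 for each). Under DAC it was lower in siStau1 than in siLuc, with a log2 ratio of −1.02, or −0.54 relative to its bin, for which the authors' deposited table gave q = 0.0285. CYCS (cytochrome c), the most abundant of the list, had 353 and 156 FPKM without and with DAC in siLuc, and 273 and 281 in siStau1, with no call in the 4 comparisons.

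In the necroptosis branch, the kinase RIPK3 was listed at 0 without DAC in either arm, and with DAC at 1.61 FPKM in siLuc and 0.691 in siStau1. Cuffdiff called it with DAC in each arm (q = 0.00162, the smallest that any gene had). Both calls start from a listed 0, and the siStau1 value with DAC was under 1 FPKM. PPIF, a mitochondrial peptidyl-prolyl isomerase, rose with DAC in siStau1 from 33.97 to 72.7 FPKM, with a log2 ratio of 1.09, or 0.72 relative to its bin (Cuffdiff q = 0.0291), and had 55.5 and 92.3 FPKM in siLuc without a call.

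**Figure D4:**
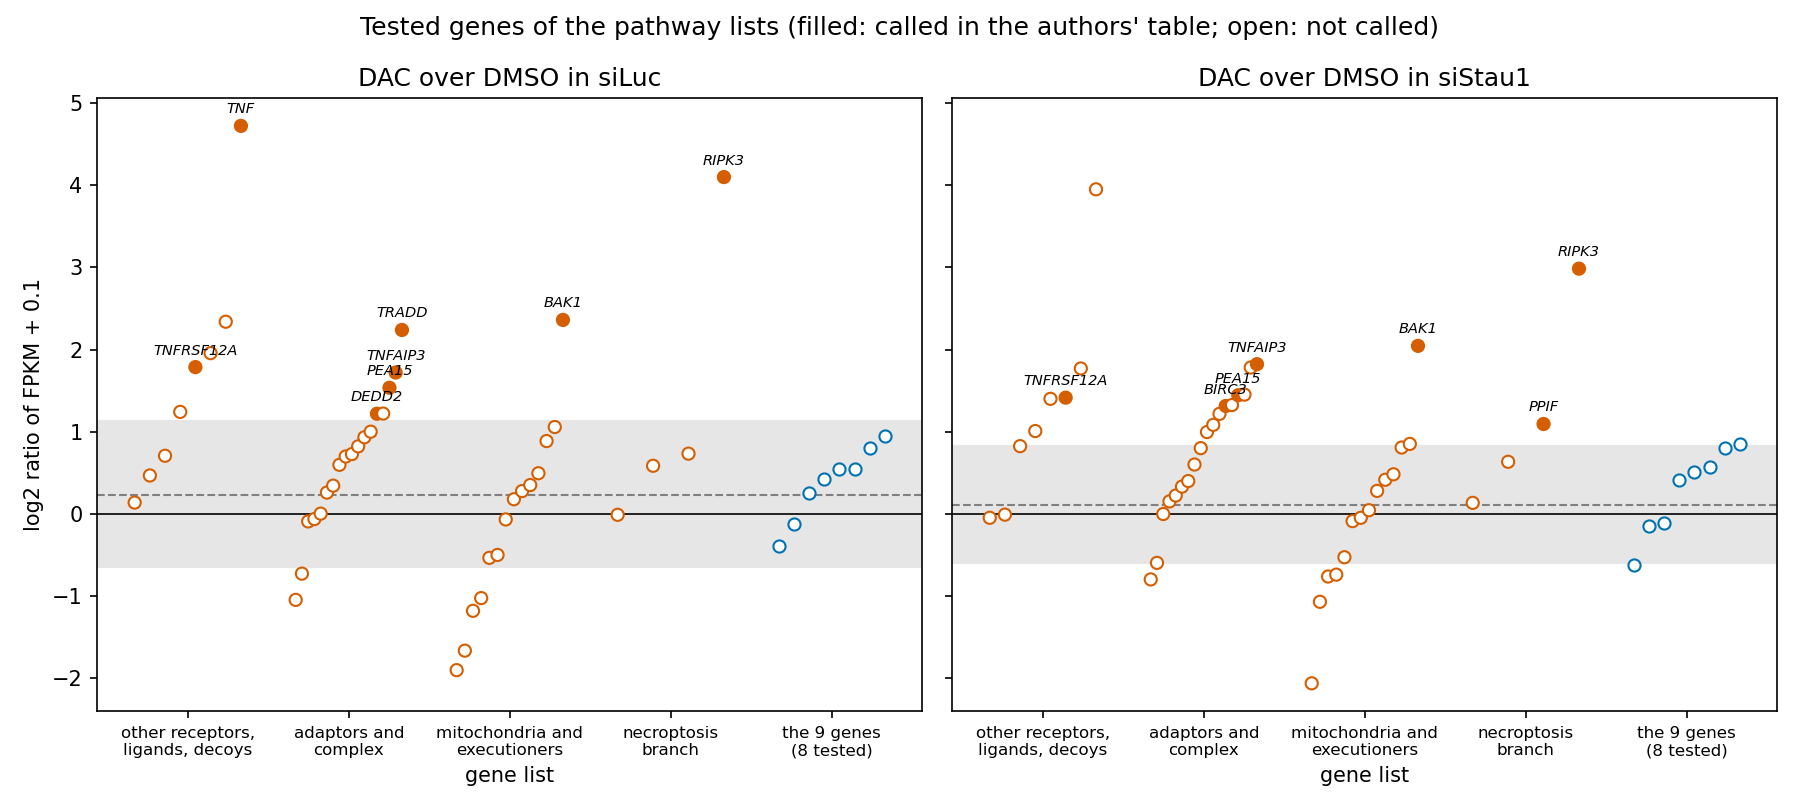
Log2 ratio of FPKM + 0.1 (y axis) for DAC over DMSO in siLuc and in siStau1, for the tested genes of 4 pathway lists and for the 8 tested core genes (x axis, points sorted within a list), leaving out 1 gene that is not reported here. Filled named points were called in the authors' deposited table, open ones were not, and the band and dashed line are the quartiles and median of all genes tested. BAK1, RIPK3, PEA15, TNFAIP3 and TNFRSF12A are filled in both panels, and no core gene is filled in either. The heights of TNF and RIPK3 follow the pseudocount, since their DMSO values were at or near 0.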

How the data were processed

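The rule names the members by symbol, but the set of genes and the lists were proposed with earlier results of these data known. Total RNA was sequenced in 8 libraries. The authors deposited FPKM values, 1 per gene and group, with p-values and q-values for 6 pairwise comparisons, in the layout of Cuffdiff per the file headers. The submitters' processing notes name HISAT2 2.1.0, Cuffdiff 2.2.1 and hg38, with no role or order. The q-value was recomputed as the Benjamini-Hochberg value over all 102180 tests (largest gap 5.27e-07). The authors' log2 fold changes (deposited column, infinite for some genes) and test score were not used. Here, log2 ratios of FPKM + 0.1 were computed with Python 3.11.15 and pandas 2.3.3. All 58699 identifiers matched GENCODE release 29 (GRCh38), which gave positions and the GC content of each longest transcript. Ratios were also centred within 20 GC bins. The adjustment and centring were tested on simulated data. For DIABLO, which has more than 1 identifier, the one with the higher FPKM was used. In 1 gene, outside all lists, a group's value differed between comparisons. A planned count test needs values for single libraries, and the authors' calls took its place. Named beside the 9 genes are, per list, called genes with at least 1 FPKM in a group (at most 6, by size), the most abundant gene, and the 3 closest patterns to FAS, TNFSF10, TNFRSF10B and CASP8. The tables of 3 libraries of RNA bound by J2, an antibody to double-stranded RNA, list repeat elements without genes and were not used. Protein sequences were not analysed here. Of the pathway and pattern genes the rule names, 1 called pathway gene and 1 gene of like pattern are not reported here by name, and the counts include them.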

Additional observations from a re-analysis of the deposited data

How the results depend on the processing

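The number of the 9 genes called was 0 in all 5 comparisons. It was also 0 with a q-value limit of 0.1 and with Benjamini-Hochberg adjustment within each comparison at 0.05. A q-value limit of 0.01, or keeping only genes at 1 FPKM or more in each group, can only lower a count. Those settings could therefore give no other number than 0. Of 225 single log2 ratios under other settings, 213 kept their sign. These include 45 with a pseudocount of 0.01 and 45 with a pseudocount of 1, where the sign could not turn. GC centring kept 34 and turned 11. For DAC in siLuc these were FAS to 0.51, CASP8 to 0.11, TNFRSF10C to −0.33 and FADD to −0.54, and for DAC in siStau1 they were CASP8 to 0.26 and FADD to −0.22. For knockdown in DMSO it was TNFRSF10C to 0.16, and for knockdown in DAC they were FADD to 0.14, TNFRSF10D to −0.0058, CASP8 to −0.24 and TNFSF10 to −0.34. Scaling to equal protein-coding sums turned FADD in siStau1 DAC against siLuc DMSO to 0.048. The median of the 9 turned for knockdown in DMSO to 0.16 and for knockdown in DAC to −0.22 with GC centring, and in DAC to −0.14 over the 8 genes at 1 FPKM or more in each group. The cause was not tested. GC centring of the called pathway genes was added after seeing the data and turned none of their called ratios, while ratios that were not called could turn (TNFRSF1A for DAC in siLuc, from 0.47 to −0.29). No paired analysis was possible because the table has no values per library, and for the same reason fits without single libraries were not run. Depth is unknown, so detection limits cannot be given.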
